A study of Homo sapiens with 13 samples.

Results

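The nuclear genes for the proteins of the mitochondrial ribosome were examined after knockdown of SOX9 and after siRNAs against Y14 in DLD-1, a human cell line that was established from a colon tumour. Members were all rows whose symbol was MRPL or MRPS followed by a number and, where present, a letter from A to C. The rule found 76 genes of the 23886 symbols listed in each of the 2 deposited comparison tables, 47 for the large subunit (MRPL) and 29 for the small subunit (MRPS). A mean of at least 10 normalised reads was reached by 75 members in both tables, all but MRPS24, and by 13649 (siSOX9) and 13444 (siY14) of all genes. In each of 13 samples the cells had received small interfering RNA (siRNA) at 50 nM, and their polyadenylated RNA was collected 72 h later and sequenced. The siSOX9 table compared 4 samples with an siRNA against SOX9 and 3 samples with a control siRNA (siCtrl), all from experiments 1 and 2. Experiment 1 held 3 of the siSOX9 and 2 of the siCtrl samples, and experiment 2 held 1 of each. The siY14 table compared 4 samples with siRNAs against Y14 (2 with siRNA 9 and 2 with siRNA 10, averaged together) and 2 siCtrl samples, all from experiment 3. The tables thus share no control sample, and the cells of every group were of 1 line.

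The mitochondrial ribosome translates the few messenger RNAs encoded in mitochondrial DNA, all of which specify subunits of the respiratory chain and ATP synthase. Its RNA is made in the organelle, while its proteins are encoded in the nucleus, translated in the cytosol and imported. Some of these proteins have bacterial counterparts, such as MRPS12, and others, such as MRPL41 and MRPS26, are found in mitochondria and not in bacteria. SOX9, a transcription factor, is made by cells at the base of intestinal crypts. Y14 belongs to the core of the exon junction complex, a set of proteins that splicing deposits on messenger RNA.

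Reads per library were recovered from the digits of the arm means for 22 members with siSOX9 and 46 with siY14. Recovered libraries carry no sample name and are lettered from the deepest (a) onward. In the siY14 table the 6 libraries formed 3 pairs whose reads agreed about as closely as repeated counting of 1 library would. The mean chi-square per gene was 1.04 for the 2 siCtrl libraries and 1.08 and 1.15 within the siY14 pairs (a with c, b with d), where sampling noise alone gives 1. It was at least 16.7 between libraries of different siY14 pairs. Within the arms of the siSOX9 table it was 8.49 to 17.9 between library a and the others. Among those others it was 2.07 to 2.31. Each pair was therefore counted as 1 sample, which leaves 1 siCtrl and 2 siY14 samples, whereas the authors' p-values treat 6 libraries as separate. Estimated depth was 178 and 185 M counts in the deepest siCtrl and siSOX9 libraries of the siSOX9 table, from 24.9 to 41.8 M in its other libraries and 45.7 to 72.8 M for siY14 and its controls. SOX9 fell from 24468 to 9067 normalised reads in the siSOX9 table (log2 ratio -1.43, authors' adjusted p = 1.40e-04), and RBM8A, the gene of Y14, had a listed mean of 0 throughout, so the knockdown of Y14 could not be checked here. Of 10 markers of colon epithelium, 9 had at least 10 reads in the siCtrl arm of each table, with CDX1 near 0, against 1 of 5 immune markers and 2 of 7 markers of fibroblasts and endothelium.

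The start regions of the members share letters that the naming rule did not use, and 8 of them are shown. RefSeq windows on GRCh38.p14, from 250 bases before to 50 after the start, were at hand for 67 of the 76 members. The letters of a YY1 motif, spelled by the capitals of the first 6 lines with any base in the third place, stood on either strand in 14 members (20.9%), against 1.55% of all 27305 windows of that length. In 13 of the 14 the ATG inside these letters was the annotated start codon, so they lie where transcript leader and coding sequence meet. In the lines that follow, the capitals mark the motif and each site of 30 bases is printed on the strand that holds it. The first 6 sites hold the YY1 letters, and the MRPL36 site stands upstream of the start on the strand opposite to the gene.
MRPL9 (chr1:151763462-151763491, minus strand): gtgcctgtgAACATGGCGGCgcccgttgtc
MRPL36 (chr5:1799855-1799884, plus strand): gccaggaaggAAGATGGCGGCggggggggg
MRPL46 (chr15:88467360-88467389, minus strand): ggagaacgaAAGATGGCGGCgcccgtaagg
MRPS10 (chr6:42217832-42217861, minus strand): gggaccggcAAGATGGCGGCgcggacagcg
MRPS14 (chr1:175023391-175023420, minus strand): gtagcggacAACATGGCGGCcttcatgctg
MRPS24 (chr7:43869478-43869507, minus strand): gcttggcccAAGATGGCGGCctccgtgtgc
MRPS12 (chr19:38930928-38930957, plus strand): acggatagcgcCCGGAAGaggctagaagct
MRPS26 (chr20:3046004-3046033, minus strand): cgccaccgtgccCCGGAAGcggcgcgggga
The last pair holds CCGGAAG, the letters of an ETS-family motif, which stood in 28 of 67 members (41.8%) and in 10.7% of all windows. This pair was shown because both genes passed the authors' adjusted p of 0.05 with siY14. Of the 6 members that passed it, the ETS letters were found in these 2 and the YY1 letters in 0. The median siY14 log2 ratio was 0.05 in members with the ETS letters and 0.13 in those without. For the YY1 letters it was 0.01 and 0.14. The letters of an NRF1 motif stood in 7 members (10.4%) and in 6.28% of all windows. A match of letters is a description and not a binding site.

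By length, the family stood high in the siCtrl cells. Over the 75 members with reads, the siCtrl level in the siY14 table had a median of 2918 normalised reads per kb of transcript, against 579.7 for 11827 protein-coding genes. MRPL3, a counterpart of a bacterial core protein, had the highest level there, 10516 reads per kb, and MRPS25 the lowest, 443 reads per kb. The order differed in the siCtrl arm of the siSOX9 table, where MRPS34 was highest at 9720.2 reads per kb (3844 in the siY14 table), followed by MRPS15 at 8719 and MRPL3 at 8593. MRPS25, like MRPL9 and MRPL46 among the sites above, was named after its values or letters were seen. MRPL41 stood near the bottom of the order in the siY14 table, at 519 reads per kb, and was at 1837 reads per kb in the siSOX9 table. The members are short genes, with a median of 5 exons and 1387 bases of spliced transcript, against 9 exons and about 3092 bases for all protein-coding genes.

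With siSOX9, no member passed the authors' adjusted p of 0.05 in the DESeq test, where 4.69% of all genes did (1.58% higher and 3.11% lower). At an unadjusted p under 0.05 there were 2 members, or 2.67% against 13.6% of all genes, and the smallest adjusted p was 0.431. The log2 ratios of the arm means ran from -0.37 to 0.42, and 61 of 75 members (81.3%) lay within 0.2 of 0, against 56.8% of all genes. The large subunit had a median log2 ratio of 0.06 with 33 of 47 members above 0, and the small subunit a median of 0.01 with 14 of 28 above 0. The median over all genes was 0.01. For scale, the median of single siCtrl libraries over their arm mean was -0.07, 0.05 and 0.03 (libraries a to c) in the large and 0.04, -0.0039 and 0.02 in the small subunit, with library a farthest from 0 in both.

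**Figure D1:**
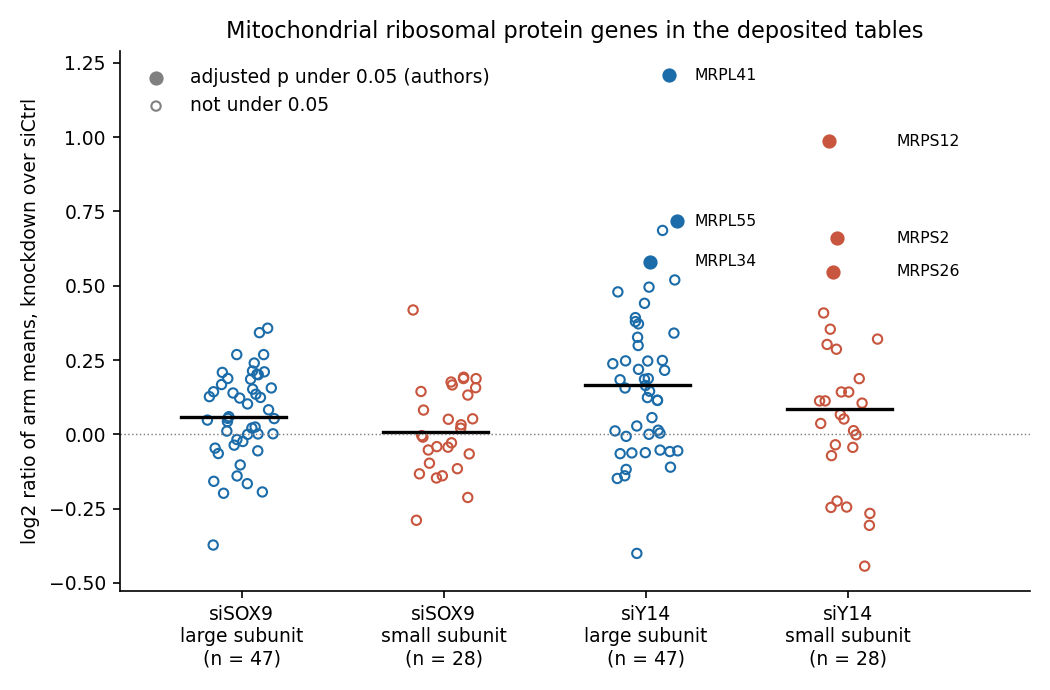
Log2 ratio of arm means (knockdown over siCtrl) of each member with at least 10 reads, by subunit and table, from the authors' deposited tables. Filled points have an authors' adjusted p under 0.05 and black bars are medians. The siSOX9 points lie between -0.37 and 0.42 with none filled, and 6 siY14 points are filled, all above 0.5.

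At the ends of the siSOX9 order stood MRPL27, a protein near the peptidyl transferase centre, and MRPL33 and MRPS17, which have bacterial counterparts. MRPL27 had 2569, 2465 and 2225 normalised reads in the siCtrl libraries a to c and 2008, 1775, 1869 and 1824 in the siSOX9 libraries a to d. Every siSOX9 library lay below every siCtrl library, with means of 2419.8 ± 176 (SD, n = 3) and 1869 ± 101 (SD, n = 4). The log2 ratio of the arm means was -0.37, with an authors' adjusted p of 0.431. MRPL33 had 1721, 1984 and 1866 reads with siCtrl and 2208, 2399.97, 2288 and 2619 with siSOX9, a log2 ratio of 0.36 with an authors' adjusted p of 0.492. Here every siSOX9 library lay above every siCtrl library. MRPL41, a large-subunit protein of mitochondria, had 2439, 2217 and 2298 reads with siCtrl and 2731, 2824, 2861 and 2749.8 with siSOX9, again without overlap. Its log2 ratio was 0.27 with an authors' adjusted p of 1.
MRPS17 had arm means of 1687 with siCtrl and 2255 with siSOX9 and did not pass the test (log2 ratio 0.42, authors' adjusted p = 1), and its reads per siSOX9 library were not recovered.

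A limma-voom test of the recovered reads, in place of the authors' test, called MRPL33 (log2 0.37, SE 0.08, adjusted p = 0.0111) and MRPL41 (log2 0.23, SE 0.06, adjusted p = 0.0247) higher and MRPL27 (log2 -0.37, SE 0.07, adjusted p = 0.00728) lower. That is 3 of 22 members tested, against 19.5% of the 9330 genes tested (8.04% higher and 11.5% lower). No overlap between arms was seen for 4 members higher and 1 lower of 22, against 13.4% and 16.1% of all recovered genes. The slope on GC content of the transcript was taken relative to the mean of the siCtrl libraries. It was -0.11 and -0.17 log2 per 10 points in the deepest siCtrl and siSOX9 libraries, against -0.03 to 0.09 in the other 5. The siCtrl slopes balance around 0 by this baseline, so they are not independent of each other. Without siCtrl library a the test called 1 member, without siSOX9 library a it called 4, and without both it called 5 of 22, 4 higher and 1 lower. The share of all genes called was not worked out for these fits, so the changes in count are not read as particular to the members. With the deepest library of each arm as a block it called 12 of 22, 8 higher and 4 lower, where 48.4% of all genes tested were called. MRPL27, MRPL33 and MRPL41 had limma-voom log2 ratios of -0.36, 0.34 and 0.25 in that fit. Which libraries belong to which of experiments 1 and 2 is not given.

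**Figure D2:**
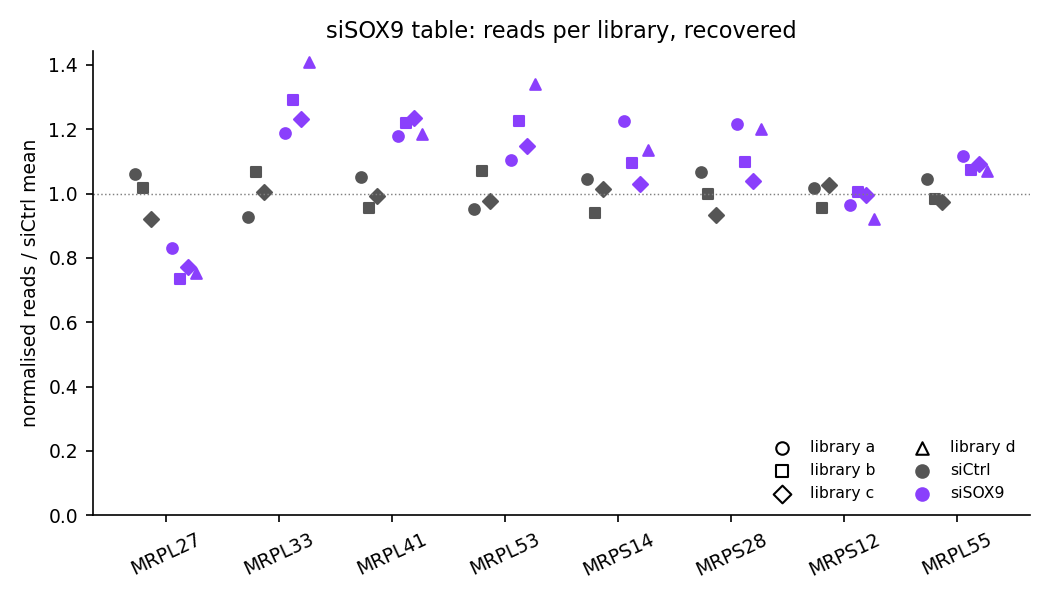
Recovered normalised reads per library in the siSOX9 table, divided by the siCtrl mean of each gene, for 8 members. Grey points are siCtrl libraries and purple points siSOX9 libraries. The 4 siSOX9 points lie below the siCtrl points for MRPL27 and above them for MRPL33, MRPL41, MRPL53 and MRPL55. The arms overlap for MRPS12, MRPS14 and MRPS28.

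With siY14, 6 of 75 members passed the authors' adjusted p of 0.05, all of them higher. They were MRPL41, MRPL55 and MRPL34 of the large subunit and MRPS12, MRPS2 and MRPS26 of the small subunit, that is 8% of the members called higher against 4.99% of all genes. No member was called lower, where 7.01% of all genes were. The median log2 ratio was 0.16 in the large subunit, with 34 of 47 members above 0, and 0.09 in the small subunit, with 18 of 28 above 0, against a median of 0.00 for all genes. Over the members with recovered reads, the large-subunit median was 0.13 in the siY14 sample of libraries a and c and 0.17 in that of b and d, and the small-subunit median was 0.02 in both. On the 6 recovered libraries as separate samples, limma-voom called 13 of 46 members, 11 higher and 2 lower (MRPS14 and MRPS36), against 23.4% of all genes tested (11.3% higher and 12.1% lower), and 0 of 46 when either siCtrl library was left out. With each pair summed to 1 sample, limma-voom called 0 of 46 members and 0 of 10179 genes (0.00%), with 2 members (MRPL41 and MRPS12) and 894 genes (8.78%) at an unadjusted p under 0.05. The 6 genes are therefore given as differences between these libraries, against a single siCtrl sample.

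MRPL41 had the highest ratio of the family. It had 656 and 655 normalised reads in the siCtrl libraries, 1217 and 1147 in siY14 libraries a and c, and 1827 and 1868 in b and d. All 4 siY14 libraries lay above the controls, and b and d lay above a and c. Its arm means differed by 1.21 on the log2 scale (authors' adjusted p = 0.0202), which was 0.85 in the sample of a and c and 1.49 in that of b and d. With the pairs summed its limma-voom log2 ratio was 1.17 with an SE of 0.36 (adjusted p = 0.55).

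MRPS12, a counterpart of the bacterial decoding-centre protein S12, had 1523 and 1576 reads in the siCtrl libraries. It had 2471 and 2454 reads in siY14 libraries a and c and 3645 and 3715 in b and d, the same order as MRPL41. The log2 ratio of the arm means was 0.99 (authors' adjusted p = 0.0294), 0.67 in the sample of a and c and 1.25 in that of b and d. With the pairs summed, limma-voom gave 0.96 with an SE of 0.32 (adjusted p = 0.55).

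The other 4 called members differed less. MRPL55, found in mitochondria and not in bacteria, had 717 and 665 reads with siCtrl, 1011 and 1005 in siY14 libraries a and c, and 1257 and 1269.85 in b and d (log2 ratio 0.72, authors' adjusted p = 0.00572). MRPL34, which has a bacterial counterpart, had 1345 and 1267 reads with siCtrl, 1882 and 1789 in a and c, and 2110.1 and 2036 in b and d (log2 ratio 0.58, authors' adjusted p = 0.0237). For both, every siY14 library lay above both siCtrl libraries, and b and d above a and c. MRPS26 had 2719.96 and 2653 reads with siCtrl, 3728 and 3718 in a and c, and 4081 and 4177 in b and d (log2 ratio 0.55, authors' adjusted p = 0.0316). MRPS2, a counterpart of bacterial S2, had 6007 and 6003 reads with siCtrl and an arm mean of 9482 with siY14, whose libraries were not recovered (log2 ratio 0.66, authors' adjusted p = 0.00617). MRPS26 showed the same order of libraries as MRPL41. Just past the threshold lay MRPL53 (log2 ratio 0.52, authors' adjusted p = 0.0604), MRPL2 (0.48, 0.0637) and MRPL38 (0.50, 0.0660), the last 2 named after their values were seen, while MRPL4 had a log2 ratio of 0.69 with an authors' adjusted p of 0.0928.

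The lowest ratios with siY14 were those of MRPS14 and MRPL19, both with bacterial counterparts, and MRPS36, whose protein has since been assigned to the 2-oxoglutarate dehydrogenase complex. None passed the authors' test. MRPS14 had 2024 and 2043 reads with siCtrl, 1604 and 1562 in siY14 libraries a and c, and 1431 and 1382 in b and d (log2 ratio -0.44, authors' adjusted p = 0.0863). All siY14 libraries of MRPS14 lay below the controls, and here b and d lay below a and c. MRPL19 had arm means of 10004 and 7577 (log2 ratio -0.40, authors' adjusted p = 0.117), and MRPS36 of 1717 and 1388 (-0.31, 0.297). Over the 46 recovered members, libraries b and d both lay above a and c in 29 and both below in 13. For 24 of the 46 the recovery sought only sets with a close to c and b close to d. How seldom the pairs overlap is thus partly set by the recovery, and no conclusion is drawn from it. Both siY14 samples lay above the siCtrl sample in 26 members and below it in 10, or 56.5% and 21.7%, against 39.3% and 38.0% of all recovered genes.

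**Figure D3:**
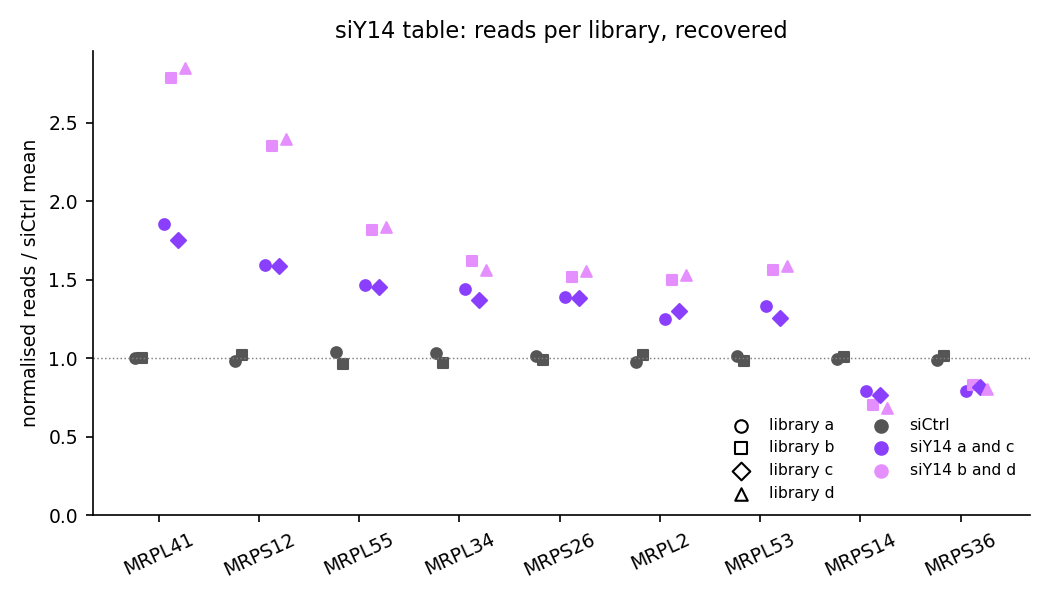
Recovered normalised reads per library in the siY14 table, divided by the siCtrl mean of each gene, for 9 members. Grey points are siCtrl libraries, dark purple siY14 libraries a and c, light purple b and d. At high siY14 means the recovery sought only sets in which the libraries of a pair lay close together. Points of a pair nearly coincide, b and d lie farther from 1 than a and c for MRPL41, MRPS12, MRPL55, MRPL34, MRPS26, MRPL2, MRPL53 and MRPS14, and MRPL41 reaches the highest values.

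The siY14 ratios moved with the GC content of the transcript. Across 11827 protein-coding genes Spearman's rho between log2 ratio and transcript GC was 0.48, and across the 75 members it was 0.66 (given as descriptions, since all points share the same libraries). In the siSOX9 table the same values were -0.05 and -0.01. The members were spread over the GC range, with 12, 15, 19, 15 and 14 of them in 5 bins that hold equal numbers of all genes, from low to high GC. Their median log2 ratios with siY14 were -0.11, 0.11, 0.16, 0.14 and 0.47 in that order, beside -0.26, -0.14, -0.02, 0.10 and 0.36 for all genes. Of the 6 called members, 5 lay in the bin of highest GC, where 17.0% of all genes were called higher, and MRPS12 lay in the bin next to it. The slope on GC was taken relative to the mean of the siCtrl libraries. It was 0.16 and 0.17 log2 per 10 points in siY14 libraries a and c, and 0.30 and 0.31 in b and d. The siCtrl libraries were at -0.0026 and 0.0026, which mirror each other because their mean is the baseline.

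When the trend of all genes on GC was taken away, the siY14 medians became 0.20 for the large and 0.13 for the small subunit, with 57 of 75 members above 0, against 6033 of 11827 genes. The log2 ratio of MRPS12 was 0.81 after this step and that of MRPL41 0.46. MRPS2 kept 0.36, MRPL55 0.27, MRPL34 0.20 and MRPS26 0.15. MRPS14 was at -0.21 and MRPL19 at -0.12. The part of GC content in the calls was otherwise not tested.

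**Figure D4:**
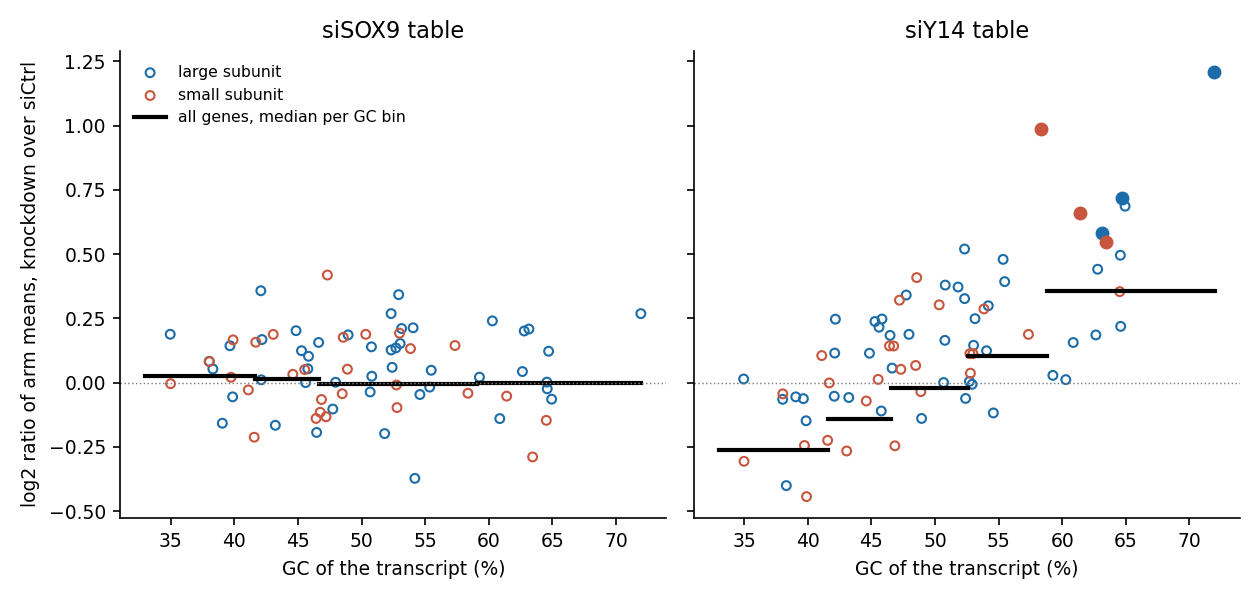
Log2 ratio of arm means against GC content of the transcript (percent) for the 75 members, with the siSOX9 table on the left and the siY14 table on the right. Filled points have an authors' adjusted p under 0.05 and black bars give the median of all protein-coding genes in each of 5 GC bins, which runs from -0.26 to 0.36 with siY14 and from -0.01 to 0.02 with siSOX9.

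Several members share bases or a start region with another gene, and the sources used here do not say whether the counting used strand. In the GENCODE annotation 24 members have exons that overlap a gene on the opposite strand, and 24 start next to a protein-coding gene that is read the other way. MRPS12 overlaps SARS2, the mitochondrial seryl-tRNA synthetase, by 349 exon bases, or 21.5% of its exons. SARS2 had arm means of 519 and 683 in the siY14 table (log2 ratio 0.40, authors' adjusted p = 0.198), so it was the less abundant partner. MRPL34 overlaps ABHD8 by 223 bases, and ABHD8 had 7.48 and 20.4 reads. MRPL46 and MRPS11 start next to each other on opposite strands and had siY14 log2 ratios of -0.06 and 0.30, neither called. The siY14 samples differed for both. MRPL46 was at 0.22 in the sample of libraries a and c and at -0.41 in that of b and d, and MRPS11 at 0.02 and 0.54.
MRPS24 was listed at 0 in both tables, and 77.0% of its exon bases are also annotated to the readthrough gene URGCP-MRPS24. That gene had arm means of 9.12 and 12.6 in the siSOX9 table and 15.8 and 10.8 in the siY14 table, so no level of MRPS24 is given.

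The knockdowns were then set against each other, to see whether members differed between the siSOX9 and siY14 comparisons. Of 75 members, 32 had log2 ratios above 0 in both tables and 8 below 0 in both, 20 were below 0 with siSOX9 and above with siY14, and 15 the reverse. A joint limma-voom model with the siY14 pairs summed tested the difference for 22 members, and 3 passed an adjusted p of 0.05, against 6.01% of 8626 genes (3.22% higher and 2.78% lower). MRPS12 (siY14 minus siSOX9 log2 1.01, SE 0.25, adjusted p = 0.0399) and MRPL27 (0.67, SE 0.15, adjusted p = 0.0320) were higher with siY14. MRPS14 (-0.62, SE 0.16, adjusted p = 0.0475) was lower with siY14. MRPL41 had a difference of 0.93 with an SE of 0.28 and did not pass (adjusted p = 0.0696). The arm means of MRPL27 were 2419.8 and 1869 for siCtrl and siSOX9 and 3022 and 3717 for siCtrl and siY14, with a call by the authors' test in neither table. The model assumes that the lone siCtrl sample of experiment 3 varies like the other samples. Without any 1 of the siCtrl libraries a, b and c or the siSOX9 libraries b, c and d, no member passed, and without siSOX9 library a 2 did. The share of all genes was not worked out for these fits. Leaving out a siY14 sample leaves 1 sample against 1 in that table, so no count is given for it. With all 13 libraries taken as separate samples 8 passed, against 21.7% of all genes tested, and with the deepest library of each siSOX9-table arm as a block 7 passed, against 19.4%.

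Proteins of the same ribosome that carry other names were near 0 with siSOX9 and had a siY14 median of 0.21. None of 7 was called with siSOX9, where 4.69% of all genes were. With siY14 1 of 7 was called higher, where 4.99% of all genes were. It was AURKAIP1, a small-subunit protein (3356 and 4788 reads, log2 ratio 0.51, authors' adjusted p = 0.0442). DAP3, a GTP-binding small-subunit protein, had a siY14 log2 ratio of 0.08.

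Factors that assemble the ribosome or modify its RNA numbered 30. With siSOX9 1 of the 30 was called lower, beside 3.11% of all genes. It was RBFA, which binds the maturing small subunit (3059 and 1936 reads, log2 ratio -0.66, authors' adjusted p = 0.0121). With siY14 5 were called higher and 1 lower, beside 4.99% and 7.01% of all genes. The higher genes were the ribosomal RNA methyltransferases MRM1 (log2 ratio 0.98, authors' adjusted p = 9.57e-04) and RNMTL1 (0.83, 0.0411), the GTPases MTG2 (0.65, 0.00813) and NOA1 (0.58, 0.0254), and the RNA helicase DDX28 (0.55, 0.0294). FASTKD2, an RNA-binding protein of the large-subunit RNA, was lower (-0.53, 0.0272).

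Over all genes, the authors' test called 1.58% higher and 3.11% lower with siSOX9, and 4.99% higher and 7.01% lower with siY14. The lists named here are short, so their calls are not read as results about the lists. Of 13 translation factors, MRRF, the ribosome recycling factor, was called lower with siSOX9. It had 2961 and 1817 reads (log2 ratio -0.70, authors' adjusted p = 0.00794). None of these factors was called with siY14, where the median was -0.10. MRRF had a siY14 log2 ratio of 0.13. Of the mitochondrial aminoacyl-tRNA synthetases, none of 17 was called with siSOX9, and of 16 with siY14 CARS2 was higher (0.72, authors' adjusted p = 0.00277) and IARS2 lower (-0.70, 0.0285). Among 15 genes for mitochondrial transcription and its regulators, none was called with siSOX9. With siY14 the mitochondrial RNA polymerase POLRMT (0.64, authors' adjusted p = 0.00985) and the nuclear receptor ESRRA (0.74, 0.0185) were higher, and the ETS-family factor GABPA was lower (4225 and 2784 reads, -0.60, 0.00917).

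Of 72 nuclear-encoded subunits of the respiratory chain and ATP synthase, none was called with siSOX9, where the median was 0.12 and 58 were above 0. With siY14 4 of 72 were called, all higher, a share close to the 4.99% of all genes called higher: the complex I subunits NDUFA11 (0.76, authors' adjusted p = 0.00135), NDUFB7 (0.91, 0.00824) and NDUFS8 (0.78, 0.0221), and the ATP synthase subunit ATP5D (0.82, 0.0259). Genes of the cytosolic ribosome gave 0 calls of 77 with siSOX9, where 4.69% of all genes were called. With siY14 9 were higher and 1 lower of 76, beside 4.99% and 7.01% of all genes, with a median of 0.15, beside 0.12 for the 75 members. The one called lower was RPS27L (-0.60, authors' adjusted p = 0.0105). The called genes of these lists rest on the same libraries as the members, and the siY14 calls among them are subject to the same pairing. With the GC trend removed, the siY14 median was 0.15 for the assembly factors, -0.01 for the translation factors, 0.04 for the synthetases, 0.17 for the transcription genes and regulators, 0.12 for the respiratory chain and 0.17 for the cytosolic ribosome, over the genes with a known transcript GC.

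**Figure D5:**
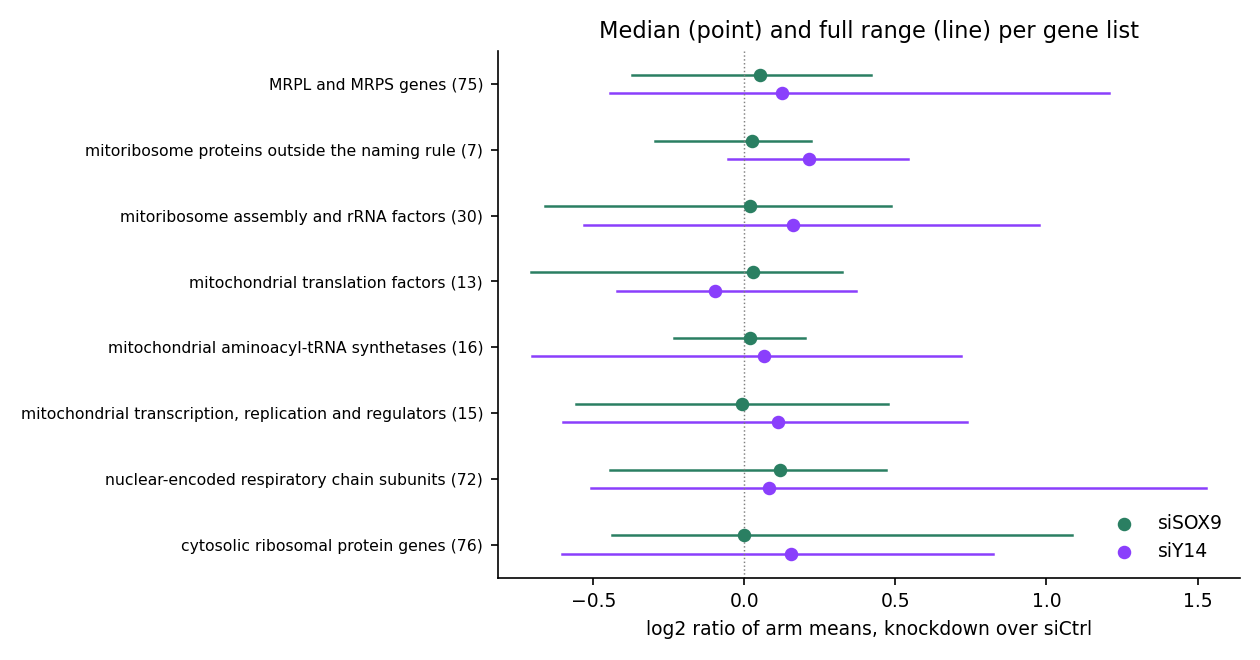
Median (point) and full range (line) of log2 ratios of arm means for the members and 7 related gene lists, in the siSOX9 table (green) and the siY14 table (purple), with the number of genes of at least 10 reads in the siY14 table in parentheses. The siSOX9 medians lie between -0.01 and 0.12, and the siY14 medians between -0.10 and 0.21.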

How the data were processed

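RNA-seq of DLD-1 cells was deposited as 2 comparison tables. The build hg19 and the tools DESeq, HTSeq, SAMtools, HISAT2, Bowtie and TopHat2 are named in the submitters' processing notes. Their versions and their order are not given in the sources used here. Per the file headers the deposited tables hold means per arm, a signal of normalised reads, with their ratio (fold change) and log2 ratio, and raw and adjusted p-values. The tables have no columns of single libraries, and the number of per-sample columns not used is 0.

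The main values are the log2 ratio of the arm means and the authors' adjusted p (threshold 0.05). The authors' means were given to 15 digits. From these digits whole reads per library were recovered where a single set of reads gave the mean and fewer than 0.01 further sets were expected by chance, which held for 13065 of 18747 genes (siSOX9) and 13420 of 17706 genes (siY14). For siY14 means above 1000 that single set was sought with libraries a and c, and b and d, within 7% of the mean of each other. Tested on simulated data, 0 of 2652 (siSOX9) and 0 of 2711 (siY14) accepted sets were wrong. Those data were drawn with the libraries of an arm close to each other, or in the same siY14 pairs, as the recovery assumes. They cannot show that sets are right where real libraries differ more. At high means sets with a wide spread are not recovered, so SDs and SEs can be too small. For genes with recovered reads and a mean of 10 or more, limma 3.58.1 (voom, R 4.3.3) gave the tests, with Benjamini-Hochberg adjustment over all genes tested. It was also tested on simulated data.

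Nothing in the labels says that samples came from separate cultures, so p-values measure only how these samples vary, which may be technical. Members and gene lists were chosen with earlier results of these data known. Named were members with an adjusted p under 0.05, the 3 highest and 3 lowest ratios and the 3 highest means per subunit, members under a mean of 10, and listed genes with an adjusted p under 0.05, with exceptions stated. Exons, length and GC came from the longest coding transcript per gene in GENCODE 29 (GRCh38). Alternatives were another adjustment, limma-voom, libraries left out, centring, pseudocounts of 1 and 10, and no filter or a minimum of 100. The summing of pairs, the GC trend (lowess, span 0.3), the check of promoter letters and the fits without the deepest libraries or with them as a block were chosen after seeing the data.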

Additional observations from a re-analysis of the deposited data

Results flagged for a closer look

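The difference between the knockdowns passed an adjusted p of 0.05 in the joint limma-voom model for 3 named members: siY14 minus siSOX9 was 0.67 on the log2 scale for MRPL27 (adjusted p = 0.0320), 1.01 for MRPS12 (adjusted p = 0.0399) and -0.62 for MRPS14 (adjusted p = 0.0475). The tables come from different experiments, so knockdown and experiment differ together in this contrast and cannot be told apart. Among the 10 named members whose 4 siSOX9 libraries were recovered, 0 had a library that stood apart by Dixon's criterion, which chance alone meets in about 1 of 20 groups.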

How the results depend on the processing

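The number of members called with siSOX9, 0 by the authors' test, stayed 0 with adjustment over genes of mean at least 10, was 3 of 22 with limma-voom on recovered reads, 1 to 4 with 1 library left out, 5 without both deepest libraries and 12 with the deepest library of each arm as a block. With siY14 the 6 calls became 8 with the narrower adjustment, 13 of 46 with limma-voom on 6 libraries, 0 to 13 with 1 library left out (0 when either siCtrl library was left out) and 0 with the pairs summed. The 3 differences between knockdowns became 8 with 13 libraries as separate samples and 7 with the deepest libraries as a block. They were fewer than 3 with 1 library of the siSOX9 table left out. Fewer members were tested with recovered reads, and the cause was otherwise not tested. The share of all genes called was not worked out for the fits with libraries left out. Changes in those counts are thus not read as particular to the members. The siY14 medians moved to 0.20 (large) and 0.13 (small) with the GC trend removed. Centring, pseudocounts and filters left all 4 medians within the spread between samples, though centring put the siSOX9 small-subunit median at -0.005, and GC removal put it at -0.001. No called value of a named member changed sign under these alternatives. Limma-voom with the pairs summed no longer called 5 called members, and that on all libraries called 6 named values that the authors' test did not.

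No paired analysis was possible because the deposited columns carry no replicate numbers, and the recovered libraries are not tied to experiments. Both siY14 siRNAs are averaged in the authors' table, and which pair of libraries belongs to which siRNA is not given. Within the siY14 table, leaving out 1 siY14 pair leaves 1 sample against 1, with no test, and the joint model tests it only with the spread of the siSOX9 table. With siSOX9, 53 members could not be tested per library.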
